A study of Mus musculus with 212 samples.

Results

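Bmal1-/- and WT mouse skin fibroblasts kept at 27 °C were compared by RNA-seq, gene by gene, over 46 of the 212 libraries of the series. The Bmal1-/- group, in which the clock gene Bmal1 (gene symbol Arntl) is knocked out, and the WT group held 23 libraries each. Each library is 1 time point, taken every 2 h from CT0 to CT46, and the libraries labelled CT14 were left out of both groups for the reason given below. Both genotypes are C57BL/6, were grown to confluence, received 100 nM dexamethasone for 15 min to set their clocks to a common phase, and were then held in HEPES-buffered medium in the dark. Harvest began 48 h after the dexamethasone. The controls therefore carry the same hormone pulse and the same cool incubation as the knockout cells. The labels give 3 wells per time point and genotype, and do not say whether wells were pooled or how many cell preparations, animals or clones stand behind each genotype. Genotype and cell preparation cannot be told apart here, and the p-values measure the spread between time-point libraries.

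In the mammalian clock, BMAL1 pairs with CLOCK or NPAS2 and binds E-box sequences near its target genes, among them the Per and Cry repressors, the REV-ERB receptors Nr1d1 and Nr1d2, and the PAR bZIP factors Dbp, Tef and Hlf. PER and CRY proteins feed back to block that activity, and REV-ERB receptors repress Arntl itself. Cultured fibroblasts run this loop cell by cell, and a brief glucocorticoid pulse brings the cells into phase.

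Levels are in FPKM as deposited, that is, fragments per length of transcript and per number of mapped reads. A log2 difference is Bmal1-/- minus WT in log2(FPKM + 1), taken between libraries of equal CT and averaged over the 23 pairs. This scale understates the change of genes near 0. Calling a gene took a difference of 2-fold or more and an adjusted p under 0.05 (limma, Benjamini-Hochberg over the 12854 genes whose mean was 1 FPKM or more). Estimated depth ran from 12.17 to 24.46 M reads in the Bmal1-/- libraries and from 15.17 to 26.29 M in the WT libraries, with a median of 20.8 in both.

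The libraries labelled CT14 went against their labels. The 1757 genes were called from the other time points, which favours agreement in those pairs, and 5 to 13 went opposite in each. At CT14, 1739 of the 1757 (99.0%) differed in the opposite direction. Anxa8, for example, had 0.311 FPKM in the library labelled Bmal1-/- CT14 and 259 FPKM in the library labelled WT CT14. With these libraries kept as labelled, 700 genes were higher and 794 lower in Bmal1-/- cells, against the 834 and 923 given below without them. Arntl (ENSMUSG00000055116, chromosome 7, 113207465 to 113314126, GRCm38) was read in both genotypes. It ran from 7.08 to 9.26 FPKM in Bmal1-/- libraries (median 7.91), against 2.81 to 6.83 in WT libraries (median 5.03). The groups did not overlap, and the log2 difference was 0.62 (SE 0.07), below the 2-fold limit. The labels do not give which part of the gene is deleted, so this level does not check them.

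Both genotypes carried fibroblast transcripts. All 12 fibroblast identity genes were above the filter, and their summed level was 11000 to 14300 FPKM in Bmal1-/- libraries and 8140 to 10700 in WT libraries. Lum, Pdgfrb, Fap and Pdgfra were lower in Bmal1-/- cells, Lum by the most, at 3.90 ± 1.04 FPKM against 43.1 ± 8.65 in WT (SD, n = 23 each). Markers of most other cell types were sparse. The filter was passed by 0 of 9 endothelial, 0 of 9 skeletal muscle and 2 of 10 macrophage and leukocyte genes. It was passed by 3 of 10 keratinocyte, 3 of 7 adipocyte and 3 of 10 melanocyte and Schwann genes. Of cartilage, bone and tendon markers 5 of 11 passed, all 5 with negative differences. Their summed level was 18.1 to 27.0 FPKM in Bmal1-/- and 337 to 640 FPKM in WT libraries, where Tnmd alone had 297 to 605 FPKM. The summed melanocyte and Schwann level was 2.13 to 3.55 FPKM in Bmal1-/- and 6.36 to 16.2 FPKM in WT libraries. Mlana and Mitf were lower in Bmal1-/- cells, and the pigment enzymes Tyrp1 and Dct were listed at 0 in all 46. The remaining tested gene of this list went the other way, with a positive difference, and was not called. Libraries of the genotypes did not overlap for all 3 (100%, against 29.1% of all genes tested). The summed macrophage level overlapped, at 26.2 to 53.9 FPKM in Bmal1-/- and 36 to 53.7 FPKM in WT libraries. Cdh1, the epithelial cadherin, averaged 3.77 ± 0.76 FPKM in Bmal1-/- cells, against 0.0587 ± 0.0406 in WT. The other 2 tested keratinocyte genes had negative differences and were not called. The summed keratinocyte level overlapped, at 6.51 to 10.4 FPKM in Bmal1-/- and 5.85 to 9.4 FPKM in WT libraries. In bulk RNA, fewer cells of a type and less RNA per cell cannot be told apart, and the part of such cells in the results below was not tested.

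At 27 °C, 1757 of the 12854 genes tested (13.7%) were called, 834 (6.49%) higher and 923 (7.18%) lower in Bmal1-/- cells, and 1701 of them (13.2% of all tested) had the same sign in all 23 pairs. Small differences were far more common: 10700 genes (83.2%) passed the adjusted p alone, 10787 (83.9%) the unadjusted p, and in 3739 genes (29.1%) the libraries of the genotypes did not overlap. The counts per list given below are to be read beside these shares, 13.7% called and 29.1% without overlap. The median difference over all genes was -0.02. Among the called genes 444 differed more than 4-fold, 211 higher and 233 lower, and 69 more than 16-fold, 22 higher and 47 lower.

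Several of the genes with the largest rises were near 0 in WT. Anxa8, a calcium-dependent phospholipid-binding annexin (chromosome 14, 34085981 to 34100571), had 217 to 314 FPKM in Bmal1-/- libraries (median 258), against 0 to 0.488 FPKM in WT libraries (median 0.124). Every Bmal1-/- library was high and every WT library near 0, and the log2 difference was 7.80 (SE 0.036, adjusted p = 1.47e-39). Myrf, a membrane-bound transcription factor best known from myelinating glia, ranged between 69.7 and 88.0 FPKM in Bmal1-/- libraries and between 0.0876 and 0.283 in WT libraries, a log2 difference of 6.08 (SE 0.026). Stxbp2, which acts in vesicle fusion, reached 114 to 182 FPKM in Bmal1-/- cells and 0.576 to 5.62 FPKM in WT cells (log2 difference 5.79). The secreted proteins among the 15 largest rises included Gdf10, a BMP family ligand, at 39.1 ± 4.69 FPKM in Bmal1-/- and 0.0533 ± 0.056 in WT, and Prg4, the joint lubricant lubricin, at 52.0 ± 18.2 FPKM in Bmal1-/- and 0.401 ± 0.118 in WT. They also included 2 carriers. Trf, the iron carrier transferrin, averaged 22.9 ± 5.40 FPKM in Bmal1-/- cells and 0.174 ± 0.215 in WT cells, and Tcn2, the vitamin B12 carrier, 71.6 ± 13.4 in Bmal1-/- and 2.51 ± 0.639 in WT cells. Gata4, a zinc finger transcription factor, had 16.2 to 22.9 FPKM in Bmal1-/- libraries and 0 to 0.121 FPKM in WT libraries (log2 difference 4.27).

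Several of the genes with the largest falls were abundant in WT and near 0 in Bmal1-/- cells. Tnmd, a tendon membrane glycoprotein (chromosome X, 133850980 to 133865577), had 0.449 to 2.13 FPKM in Bmal1-/- libraries (median 1.10), against 297 to 605 FPKM in WT libraries (median 437). The groups stood far apart, with a log2 difference of -7.68 (SE 0.068, adjusted p = 3.26e-33). Of the other cartilage, bone and tendon markers, 4 passed the filter and Mkx was also lower. Zic1, a zinc finger transcription factor, was at most 0.344 FPKM in Bmal1-/- libraries and at least 108 FPKM in WT libraries (log2 difference -7.01). Casp1, the inflammasome protease, was at most 0.149 FPKM in Bmal1-/- libraries and at least 73.4 FPKM in WT libraries (-6.43). Prl2c2, a growth-induced prolactin relative, averaged 1.03 ± 0.442 FPKM in Bmal1-/- and 150 ± 31.9 FPKM in WT cells, a value that reads from near-identical relatives may share. Crabp1, a cytoplasmic retinoic acid carrier, ran from 0 to 1.14 FPKM in Bmal1-/- libraries (median 0.345) and from 81.1 to 405 FPKM in WT libraries (median 161). It varied widely among WT libraries yet did not overlap between genotypes (log2 difference -6.91, SE 0.102).

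**Figure D1:**
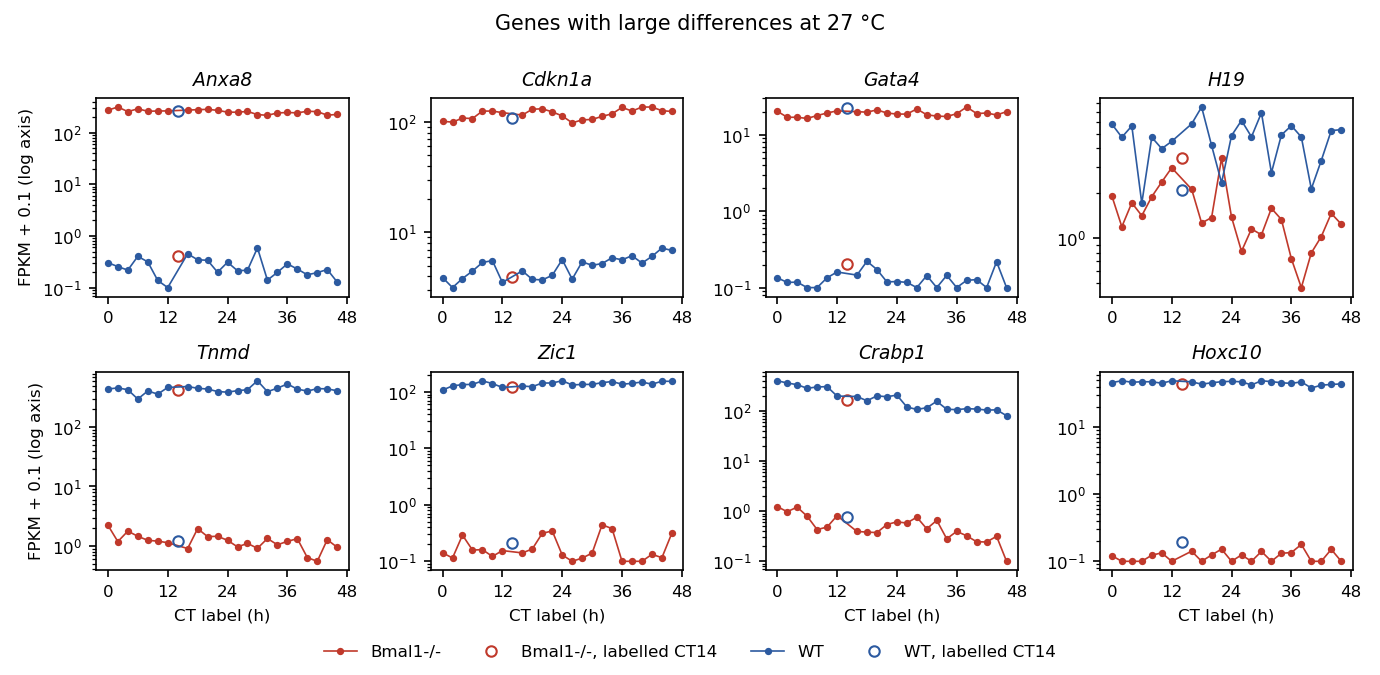
FPKM + 0.1 on a log axis against the CT label (h) for 8 genes in every library at 27 °C, with lines for Bmal1-/- (red) and WT (blue) and open circles for the libraries labelled CT14. Anxa8, Cdkn1a and Gata4 sit higher in Bmal1-/- and Tnmd, Zic1, Crabp1 and Hoxc10 higher in WT with no overlap among the filled points, while H19 overlaps, and in the genes without overlap the CT14 circles lie with the opposite genotype.

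Retinoid handling genes changed in both directions, with 4 of 12 tested members lower and 1 higher. Crabp2 averaged 1.07 ± 0.363 FPKM in Bmal1-/- and 129 ± 14 FPKM in WT cells, the retinoic acid receptor Rarb 0.381 ± 0.147 in Bmal1-/- and 14.6 ± 1.26 in WT, and the retinoic acid-degrading enzyme Cyp26b1 1.63 ± 0.274 in Bmal1-/- and 18.7 ± 3.99 in WT. The exception was the plasma retinol carrier Rbp4, which was higher, at 18.3 ± 6.86 FPKM in Bmal1-/- against 0.285 ± 0.158 in WT. In iron handling 1 of 13 tested genes, Trf, was higher and 4 were lower, among them the ferrireductase Steap3 and the haem oxygenase Hmox1 (202 ± 19.6 FPKM in Bmal1-/- against 415 ± 62.3 in WT).

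On the linear scale the largest gains and losses fell on abundant transcripts. Among called genes the gains were led by the ribosomal protein gene Rpl32, with 2210 to 2900 FPKM in Bmal1-/- libraries against 982 to 1350 in WT libraries, and the translation elongation factor Eef2, with a mean of 2100 ± 180 FPKM in Bmal1-/- against 1020 ± 53.9 in WT. The losses were led by mt-Nd1, a mitochondrially encoded subunit of respiratory complex I, with 729 to 2530 FPKM in Bmal1-/- libraries against 1740 to 4980 in WT libraries. These groups overlapped, though the difference was negative in all 23 pairs. At 37 °C it was 0.61. The share of summed FPKM from mitochondrial genes was 0.99 to 2.95% in Bmal1-/- and 2.0 to 5.08% in WT libraries. Rps15 and Rps26 were called higher too, by log2 differences of 1.11 and 1.30. None of these 3 ribosomal protein genes is in the fixed list of 28, of which 26 were tested, 0 were called (for all genes 13.7% were) and 22 had positive differences, with a median of 0.60. The libraries did not overlap for 13 of the 26 (50%, against 29.1% of all genes tested). The summed level of the list was 18200 to 23000 FPKM in Bmal1-/- libraries and 11800 to 14700 FPKM in WT libraries, without overlap. Many ribosomal protein genes have near-identical processed pseudogenes, so their single values are uncertain.

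Transcripts of p53 target genes were higher almost throughout. The p53 protein is a stress-induced activator of genes for cell cycle arrest, DNA repair and cell death. Of 23 tested targets 21 were higher and 0 lower in Bmal1-/- cells, with a median difference of 2.24. The libraries did not overlap for 22 (95.7%, against 29.1% of all genes tested), and 1 of these, Plk3, lay lower in Bmal1-/- libraries. Cdkn1a, the p21 inhibitor of cyclin-dependent kinases (chromosome 17, 29090976 to 29100727), had 97.8 to 136 FPKM in Bmal1-/- libraries (median 121) and 3.07 to 7.12 FPKM in WT libraries (median 5.13). All Bmal1-/- libraries were above all WT libraries, and the log2 difference was 4.36 (SE 0.051, adjusted p = 1.86e-30). Ephx1, the microsomal epoxide hydrolase, ran from 205 to 289 FPKM in Bmal1-/- libraries and from 11.7 to 18.7 FPKM in WT libraries. Members of the TNF receptor family were among them, with Tnfrsf10b at 25.9 ± 1.52 FPKM in Bmal1-/- and 1.68 ± 0.184 in WT, Eda2r at 38.1 ± 4.07 in Bmal1-/- and 2.93 ± 0.697 in WT, and Fas at 20.2 ± 3.33 in Bmal1-/- and 1.12 ± 0.381 in WT. Mdm2, which marks p53 for degradation, averaged 120 ± 6.04 FPKM in Bmal1-/- cells against 22.1 ± 2.71 in WT cells. Bax, a mitochondrial death effector, had the smallest difference of these, 187 ± 11.4 FPKM in Bmal1-/- against 77.4 ± 6.61 in WT. The polo-like kinase genes Plk2 and Plk3 were not called (log2 differences -0.17 and -1.0). Plk3 had 0.206 to 0.755 FPKM in Bmal1-/- libraries and 1.49 to 2.35 FPKM in WT libraries. From the first day alone, and with a pseudocount of 0.1, 1 target was called lower. Trp53 itself, the gene for p53, was at a log2 difference of 0.32 and not called.

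Of 8 tested genes for cyclin-dependent kinase inhibitors and p53, Cdkn1a was higher, 2 were lower and the others were not called. Cdkn2a, which encodes p16 and p19ARF and is known to rise in senescent cells, had 193 to 267 FPKM in Bmal1-/- libraries and 639 to 1040 FPKM in WT libraries (log2 difference -1.96, SE 0.033). Cdkn1c, the p57 inhibitor, averaged 3.45 ± 0.564 FPKM in Bmal1-/- and 12.2 ± 5.15 in WT cells. Of 14 tested genes of senescence-associated secretion and the lamina, 6 were lower and 0 higher, including Igfbp7 at 46.5 ± 6.77 FPKM in Bmal1-/- against 350 ± 26.1 in WT. The deposited values are per gene, so the 2 products of Cdkn2a cannot be told apart.

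Mitosis and DNA replication genes were lower or not called. Of 28 tested, 14 were lower and 0 higher, and all 28 differences were negative (median -1.03). The libraries of the genotypes did not overlap for 4 (14.3%, below the 29.1% of all genes tested). Cenpa, the centromeric histone, had 0.904 to 9.35 FPKM in Bmal1-/- libraries (median 2.68) and 12.9 to 52.6 FPKM in WT libraries (median 28). Mki67, a proliferation marker, ran from 0.231 to 2.78 FPKM in Bmal1-/- and from 1.87 to 10.9 FPKM in WT libraries, so that its groups overlapped. The cyclins Ccna2 and Ccnb2 were lower by the same log2 difference of -1.92. Replication genes were split: Mcm5 and Tyms were lower (log2 differences -1.21 and -1.26), while Mcm2 (-0.52), Mcm4 (-0.04) and Pcna (-0.03) were not called. Instead of 14, the lower genes numbered 8 from the second day alone, 5 with a mean of 5 FPKM or more, and 9 with a test against the 2-fold limit.

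Cholesterol synthesis genes, which SREBP2 activates when sterols are short, were lower as a group. Of 24 tested, 16 were lower and 0 higher (66.7% called, against 13.7% of all genes tested), and the median difference was -1.25. The libraries did not overlap for 20 (83.3%, against 29.1% of all genes). Hmgcs1, the enzyme that feeds the pathway, ran from 18.1 to 33.6 FPKM in Bmal1-/- libraries (median 24.6) and from 78.3 to 149 FPKM in WT libraries (median 93.7). Cyp51, a sterol demethylase, ran from 17.1 to 34.1 FPKM in Bmal1-/- libraries and from 82.6 to 191 FPKM in WT libraries (log2 difference -1.93). Fdps, which makes farnesyl diphosphate, ran from 16.6 to 26.4 FPKM in Bmal1-/- and from 57.5 to 98.5 FPKM in WT libraries (-1.70). Srebf2, the gene for SREBP2, averaged 44.7 ± 3.27 FPKM in Bmal1-/- and 98.5 ± 12.6 FPKM in WT cells.

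**Figure D2:**
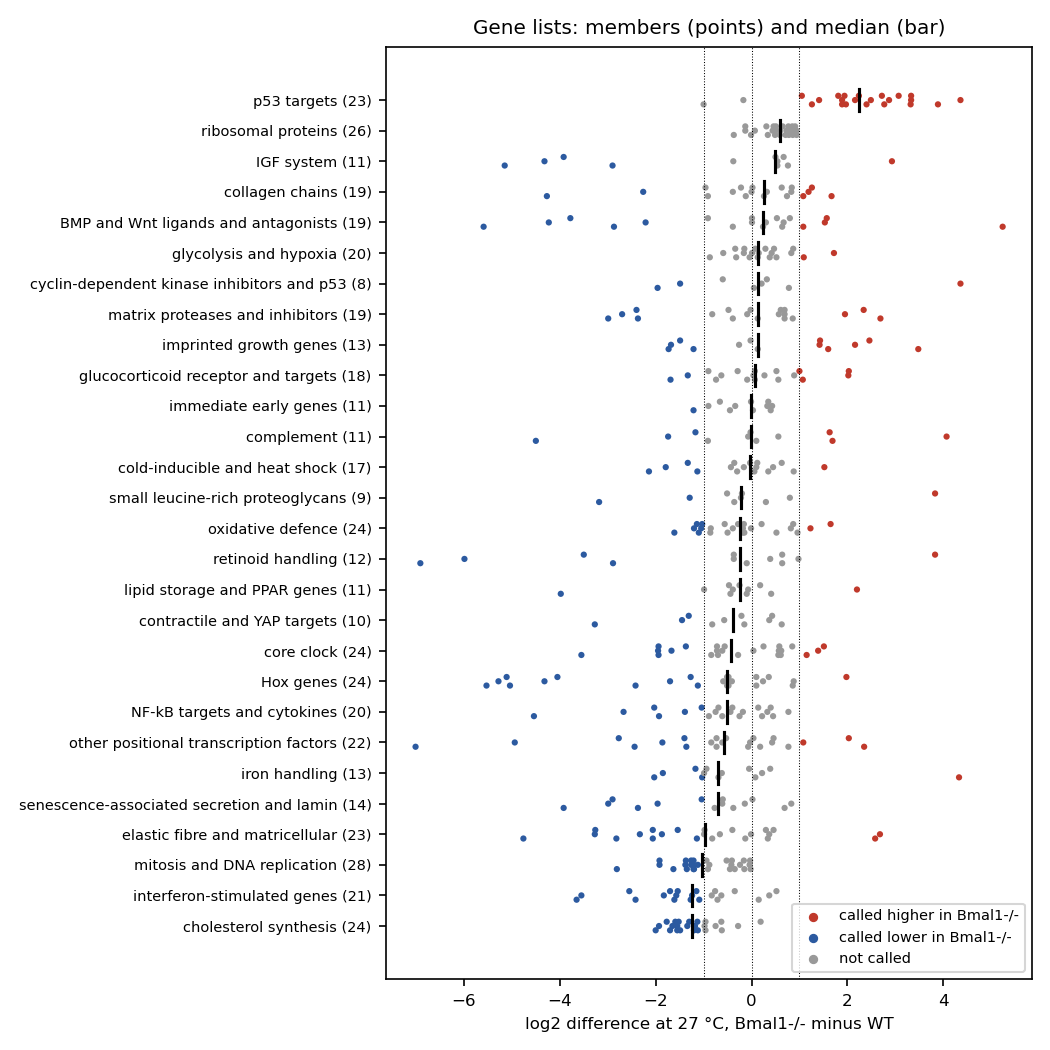
Log2 difference (Bmal1-/- minus WT, 27 °C) of every tested gene in 28 pathway lists, points coloured by call, black bars at list medians and dotted lines at -1, 0 and 1. Of the 23 p53 targets 21 lie to the positive side, with a list median of 2.24. The cholesterol, interferon and mitosis lists have medians of -1.25, -1.24 and -1.03.

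Interferon-stimulated genes, the antiviral program that interferon signals switch on, were also lower. Of 21 tested, 13 were lower and 0 higher, 18 differences were negative, and the median was -1.24. Ifi44 had 0.02 to 1.36 FPKM in Bmal1-/- libraries (median 0.244) and 6.43 to 43.5 FPKM in WT libraries (median 17.3), and its groups did not overlap. Irf7, the regulator of the interferon response, ran from 7.25 to 17.5 FPKM in Bmal1-/- libraries and from 37.5 to 146 FPKM in WT libraries (log2 difference -2.55). The chemokine Cxcl10 had at most 0.338 FPKM in Bmal1-/- libraries and 1.61 to 15.8 FPKM in WT libraries. Ifit2 and Irf9 were not called, at log2 differences of 0.15 and 0.37. The 300-base RefSeq promoter windows (GRCm38.p6, 250 bases before to 50 after the gene start) of 3 lower members are shown because they hold the motif GAAANNGAAA, the core of the interferon-stimulated response element. They are Isg15 (chr4:156200769-156201068, minus strand), Ifit1 (chr19:34640639-34640938, plus strand) and Rsad2 (chr12:26456403-26456702, minus strand), each printed 5′ to 3′ on the gene's strand with the motif, on either strand and with overlapping matches joined, in capitals:
Isg15: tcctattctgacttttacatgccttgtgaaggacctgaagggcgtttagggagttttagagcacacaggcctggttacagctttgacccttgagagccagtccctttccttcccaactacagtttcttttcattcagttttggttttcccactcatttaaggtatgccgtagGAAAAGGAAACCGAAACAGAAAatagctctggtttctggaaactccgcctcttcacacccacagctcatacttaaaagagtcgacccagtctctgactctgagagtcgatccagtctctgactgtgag
Ifit1: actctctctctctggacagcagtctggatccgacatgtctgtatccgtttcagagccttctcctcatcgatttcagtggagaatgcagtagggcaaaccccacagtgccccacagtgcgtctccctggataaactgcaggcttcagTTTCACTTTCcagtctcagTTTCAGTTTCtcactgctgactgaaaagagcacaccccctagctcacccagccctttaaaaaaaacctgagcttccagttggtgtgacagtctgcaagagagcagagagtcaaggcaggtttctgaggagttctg
Rsad2: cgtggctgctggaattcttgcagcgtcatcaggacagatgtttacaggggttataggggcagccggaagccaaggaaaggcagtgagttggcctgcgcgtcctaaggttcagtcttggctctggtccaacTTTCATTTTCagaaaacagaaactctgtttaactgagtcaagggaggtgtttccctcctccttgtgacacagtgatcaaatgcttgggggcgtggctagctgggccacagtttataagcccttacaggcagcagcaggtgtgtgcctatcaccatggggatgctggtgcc
The matches began at -78, -72 and -66 in Isg15, at -104 and -85 in Ifit1 and at -120 in Rsad2, counted from the gene start. The motif, searched on both strands, was in 3.44% of all 32851 windows. Counted per gene, with a match in any of its windows, it was in 10 of the 17 tested interferon-stimulated genes that have a window. It was in 8 of 12 lower genes and in 2 of 5 genes not called. Isg15 averaged 18.7 ± 8.31 FPKM in Bmal1-/- and 62.1 ± 37.8 FPKM in WT cells, Ifit1 5.99 ± 2.40 in Bmal1-/- and 21 ± 12.5 in WT, and Rsad2 0.893 ± 0.356 in Bmal1-/- and 3.98 ± 2.46 in WT. Of 20 NF-kB targets and cytokines 6 were lower and 0 higher, with Il1rn, the interleukin-1 receptor antagonist, at 2.77 ± 1.75 FPKM in Bmal1-/- and 84.4 ± 33.4 FPKM in WT cells. Serping1, the C1 inhibitor, was among 3 lower complement genes, and Cd55, which breaks down complement convertases on the cell surface, among 3 higher ones of 11 tested.

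Clock genes were read at levels that differed in both directions. Of 24 tested, 3 were higher and 6 lower (37.5% called, against 13.7% of all genes tested), with a median of -0.42. The libraries of 16 did not overlap (66.7%, against 29.1% of all genes). Among activators, Npas2, the partner that can stand in for CLOCK, had 1.63 to 3.37 FPKM in Bmal1-/- libraries (median 2.11) and 0.0819 to 0.758 FPKM in WT libraries (median 0.219), a log2 difference of 1.39 (SE 0.06). Clock was not called, at 3.86 ± 0.418 FPKM in Bmal1-/- and 7.01 ± 0.815 in WT cells. Among repressors, Cry1 had 31.0 to 44.4 FPKM in Bmal1-/- libraries and 10.2 to 15.4 FPKM in WT libraries, with no overlap (1.51, SE 0.036). Per3 went the other way, with 2.23 to 3.53 FPKM in Bmal1-/- and 11.6 to 15.2 FPKM in WT libraries (-1.94). Per1 did not pass the test (0.04, adjusted p = 0.488, limma). Per2 overlapped, with a median of 1.38 FPKM in Bmal1-/- and 2.67 FPKM in WT libraries, and was not called.

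Among the clock outputs, the REV-ERB gene Nr1d2 had 2.33 to 4.95 FPKM in Bmal1-/- libraries and 12.4 to 18.5 FPKM in WT libraries (log2 difference -1.95), and Nr1d1 had 9.37 to 13.8 FPKM in Bmal1-/- and 19 to 26.7 FPKM in WT libraries (-0.84, not called). The PAR bZIP factor Hlf showed the largest fall of the list, with 0.557 to 4.0 FPKM in Bmal1-/- libraries and 22.7 to 43.8 FPKM in WT libraries (-3.55, SE 0.124). Dbp, of the same family, had 6.84 to 10.1 FPKM in Bmal1-/- and 15.0 to 28.6 FPKM in WT libraries (-1.37). The E-box repressors Bhlhe41 and Ciart fell to medians of 4.22 and 1.04 FPKM in Bmal1-/- libraries, against 15.9 and 6.32 FPKM in WT libraries. Usp2, a deubiquitinating enzyme that acts on clock proteins, was higher (1.15) with overlapping groups and a positive difference in 22 of 23 pairs. From the first day alone its difference was 0.71 and not called.

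The promoter windows of 4 clock genes with an E-box of the form CACGTG are shown, since this is the sequence CLOCK and BMAL1 bind. They are Ciart (chr3:95882179-95882478, minus strand), Bhlhe41 (chr6:145865371-145865670, minus strand), Tef (chr15:81802423-81802722, plus strand) and Cry1 (chr10:85185005-85185304, minus strand), from RefSeq on GRCm38.p6, 5′ to 3′ on the gene's strand, with the E-box in capitals:
Ciart: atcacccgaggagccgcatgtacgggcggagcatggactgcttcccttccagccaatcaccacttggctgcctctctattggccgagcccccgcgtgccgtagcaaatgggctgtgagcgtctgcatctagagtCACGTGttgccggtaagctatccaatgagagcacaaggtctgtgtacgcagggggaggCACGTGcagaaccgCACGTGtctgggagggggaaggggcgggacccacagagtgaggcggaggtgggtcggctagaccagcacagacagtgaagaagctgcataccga
Bhlhe41: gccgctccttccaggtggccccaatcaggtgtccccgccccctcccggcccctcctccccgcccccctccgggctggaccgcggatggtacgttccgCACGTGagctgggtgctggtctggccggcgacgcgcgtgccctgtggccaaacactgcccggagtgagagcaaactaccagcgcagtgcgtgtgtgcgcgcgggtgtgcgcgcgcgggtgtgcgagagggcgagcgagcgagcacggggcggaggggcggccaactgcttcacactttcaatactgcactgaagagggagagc
Tef: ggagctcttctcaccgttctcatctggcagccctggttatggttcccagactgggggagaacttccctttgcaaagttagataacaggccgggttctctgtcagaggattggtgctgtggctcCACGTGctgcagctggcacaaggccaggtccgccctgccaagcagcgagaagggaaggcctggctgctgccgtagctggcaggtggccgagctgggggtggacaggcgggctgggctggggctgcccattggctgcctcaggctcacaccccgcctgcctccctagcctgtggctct
Cry1: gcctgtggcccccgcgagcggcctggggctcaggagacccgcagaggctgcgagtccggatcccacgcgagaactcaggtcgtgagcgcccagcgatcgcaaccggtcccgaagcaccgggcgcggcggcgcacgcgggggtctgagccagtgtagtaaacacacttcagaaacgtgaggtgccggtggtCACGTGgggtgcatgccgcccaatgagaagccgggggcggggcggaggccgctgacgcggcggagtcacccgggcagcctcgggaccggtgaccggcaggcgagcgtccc
Ciart holds 3 matches, at -116, -58 and -44 from the gene start, and the others 1 each, at -153 in Bhlhe41, -127 in Tef and -60 in Cry1. The motif, which reads the same on both strands, was in 7.15% of all windows. Counted per gene, with a match in any of its windows, it was in 5 of the 20 tested clock genes that have a window. It was in 2 of 6 lower genes, 1 of 3 higher genes and 2 of 11 genes not called. Of these 4 genes Ciart and Bhlhe41 were lower, Cry1 was higher and Tef was not called (-0.72).

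**Figure D3:**
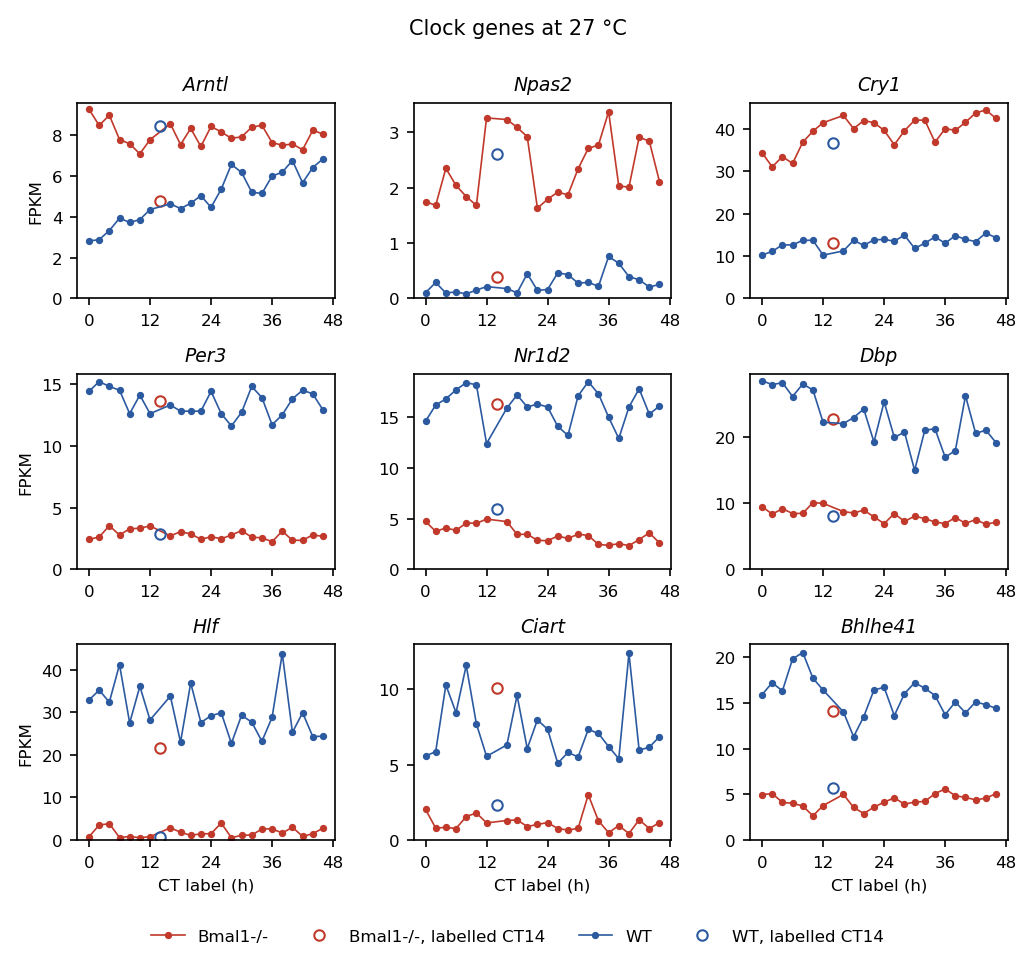
FPKM of 9 clock genes against CT (h) at 27 °C in Bmal1-/- (red) and WT (blue) libraries, with open circles for those labelled CT14. Npas2 and Cry1 run higher and Per3, Nr1d2, Hlf, Bhlhe41 and Ciart lower in Bmal1-/- libraries across the course.

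Whether the genotype difference itself followed a daily cycle was asked with a 24 h cosine and sine fitted to the 23 pair differences. By limma, 0 of 12854 genes (0%) passed at an adjusted p under 0.05, with 1189 at an unadjusted p under 0.05, and 8 passed when libraries were not paired by CT. The smallest adjusted p was that of Peg3, an imprinted zinc finger gene (0.0954), with a fitted amplitude of 0.45 on the log2 scale. Its level itself differed by a log2 difference of 3.48, at 6.82 to 19.9 FPKM in Bmal1-/- libraries and at most 0.0769 FPKM in WT libraries. A p above the threshold does not show that the difference was constant over the day.

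A linear drift of the difference over the course was called for 1204 genes (9.37%) at an adjusted p under 0.05, 558 positive and 646 negative. With the CT14 libraries kept as labelled this count was 217. Some lists drifted mostly in 1 direction: drift was positive for 14 of 28 mitosis genes and 11 of 21 interferon-stimulated genes with 0 negative in both lists, negative for 7 of 24 cholesterol genes with 0 positive, and negative for 8 and positive for 1 of 23 elastic fibre and matricellular genes. Others did not, such as the p53 targets (3 positive, 2 negative) and the contractile and YAP targets (3 positive, 3 negative). Isg15 averaged 24.9 ± 7.60 FPKM on the first day and 13 ± 3.4 FPKM on the second in Bmal1-/- cells (SD, n = 11 and 12), against 92.2 ± 33.9 on the first and 34.6 ± 9.62 on the second in WT cells. Day means were lower on the second day for 19 of 21 interferon-stimulated genes in Bmal1-/- cells and for all 21 in WT cells. Over all genes tested this held for 48.0% in Bmal1-/- and 45.6% in WT cells, and these directions were not tested. The mitosis genes did likewise, with 24 of 28 lower on the second day in Bmal1-/- cells and 28 of 28 in WT cells. For Ccna2 the means were 0.747 ± 0.426 FPKM on the first day and 0.408 ± 0.148 FPKM on the second in Bmal1-/- cells, against 7.49 ± 2.24 and 3.34 ± 1.12 FPKM on the same days in WT cells. Cholesterol genes parted ways: 21 of 24 were lower on the second day in Bmal1-/- cells, while 19 of 24 were higher in WT cells. Hmgcs1 averaged 27.0 ± 2.52 FPKM on the first day and 21.1 ± 2.65 on the second in Bmal1-/- cells, against 91.5 ± 7.31 and 106 ± 22.5 FPKM on those days in WT cells. The drifts with the smallest p were those of Thbs1, a matricellular thrombospondin (-0.75 per 24 h, adjusted p = 6.63e-07), and Cplx2, a regulator of vesicle fusion (-0.49 per 24 h). The difference in Arntl drifted by -0.52 per 24 h (SE 0.067, adjusted p = 5.51e-05), with means of 8.07 ± 0.692 FPKM on the first day and 7.95 ± 0.396 on the second in Bmal1-/- cells and 3.96 ± 0.734 FPKM on the first day and 5.89 ± 0.735 on the second in WT cells. Crabp1 drifted by 0.83 per 24 h.

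Of the Hox genes, those tested of groups 9 and 10 were lower in Bmal1-/- cells, as were 4 of groups 5 to 7. Hox genes encode transcription factors laid out in 4 clusters, with low-numbered genes used toward the head and high-numbered genes toward the tail, and cultured fibroblasts keep the pattern of their site of origin. Of 39 Hox genes 24 were tested, 10 were lower and 1 was higher in Bmal1-/- cells (45.8% called, against 13.7% of all genes tested). The 10 lower ones were Hoxa5, Hoxa6, Hoxa7, Hoxa9, Hoxa10, Hoxb6, Hoxb9, Hoxc9, Hoxc10 and Hoxd9. With a mean of 5 FPKM or more 6 Hox genes were lower and 0 higher. With a pseudocount of 0.1, 3 were higher. Hoxc10 was at most 0.0786 FPKM in Bmal1-/- libraries and 38.4 to 49.3 FPKM in WT libraries (log2 difference -5.53, SE 0.023). Hoxa9 and Hoxa10 were at most 0.114 and 0.0689 FPKM in Bmal1-/- libraries, against 31.8 to 48.5 and 27.3 to 39.3 FPKM in WT libraries. Hoxb9 was at most 0.0973 FPKM in Bmal1-/- libraries and at least 27.3 FPKM in WT libraries. The higher gene was Hoxb2, at 3.53 ± 0.546 FPKM in Bmal1-/- and 0.145 ± 0.105 FPKM in WT cells. The group 8 genes were not called, with values for Hoxc8 (17.8 ± 1.46 FPKM in Bmal1-/-, 27.3 ± 2.31 in WT) and for Hoxb8 (8.59 ± 0.665 in Bmal1-/-, 12.7 ± 1.38 in WT), and with Hoxd8 at a log2 difference of -0.48. Of 22 other positional factors tested 7 were lower and 3 higher. The lower ones included Zic4, neighbour of Zic1, at 0.0545 ± 0.114 FPKM in Bmal1-/- and 31.6 ± 5.79 in WT, and En1, and the higher ones were Tbx3, Alx4 and Msx1. Tbx3 averaged 16.9 ± 2.44 FPKM in Bmal1-/- against 2.55 ± 0.704 in WT.

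Secreted regulators differed widely in both directions. Of 19 BMP and Wnt ligands and antagonists tested, 4 were higher and 5 lower. Besides Gdf10, the BMP antagonist Chrd was higher, while the BMP antagonists Chrdl1 (0.128 ± 0.0812 FPKM in Bmal1-/-, 53.5 ± 7.71 in WT) and Grem1 (0.225 ± 0.171 in Bmal1-/-, 22.3 ± 5.23 in WT) and the Wnt-enhancing R-spondin Rspo3 (1.62 ± 0.285 in Bmal1-/-, 34.9 ± 3.30 in WT) were lower. Of 11 tested genes of the IGF system 1 was higher and 4 lower (45.5% called, against 13.7% of all genes tested). The IGF binding proteins split, with Igfbp4 higher at 456 ± 56.9 FPKM in Bmal1-/- against 59.4 ± 10.8 in WT. Igfbp3, Igfbp5 and Igfbp7 were lower, and Igfbp5 was at most 0.0958 FPKM in Bmal1-/- libraries and at least 14.1 FPKM in WT libraries. Among imprinted growth genes, 6 of 13 were higher and 4 lower. Meg3, Rian and Mirg, noncoding RNAs of 1 imprinted domain, were higher together with its coding gene Dlk1, with Meg3 at 89.3 ± 28.5 FPKM in Bmal1-/- and 19.4 ± 7.39 in WT cells.

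The matrix was also split by family. Of 23 elastic fibre and matricellular genes 10 were lower and 2 higher (52.2% called, against 13.7% of all genes tested). Spp1, the adhesive phosphoprotein osteopontin, had 20.7 to 83.5 FPKM in Bmal1-/- libraries and 621 to 1770 FPKM in WT libraries (log2 difference -4.76). Postn, periostin, had 225 to 325 FPKM in Bmal1-/- libraries against 908 to 1990 FPKM in WT libraries (-2.33). The microfibril protein Mfap5 averaged 47.0 ± 9.83 FPKM in Bmal1-/- cells against 454 ± 58.2 FPKM in WT cells. Mgp, an inhibitor of calcification, and the lysyl oxidase Loxl2 were the 2 higher genes. Mgp ranged from 771 to 1350 FPKM in Bmal1-/- libraries, all above the 70.3 to 294 FPKM of WT libraries. Of 19 collagen chains 4 were higher and 2 lower, and the subunits of collagen VI parted: Col6a1 and Col6a2 were higher, at 778 ± 68.9 and 564 ± 51.5 FPKM in Bmal1-/- against 341 ± 34.3 and 236 ± 33.5 in WT, while Col6a3 was lower, at 6.12 ± 1.38 in Bmal1-/- against 33.1 ± 6.66 in WT. Of 19 matrix proteases and inhibitors 4 were lower, the metalloproteases Mmp3, Mmp9, Mmp11 and Mmp13. The 3 higher genes were the metalloproteases Adamts2 (log2 difference 1.95) and Adamts15 (2.69) and the metalloprotease inhibitor Timp3, at 171 ± 34.6 FPKM in Bmal1-/- against 32.7 ± 4.11 in WT. Of 9 small leucine-rich proteoglycans, Fmod was higher and Lum and Ogn were lower. Of 10 contractile and YAP target genes 3 were lower, with Ccn2, a connective tissue growth factor, at 0.779 ± 0.316 FPKM in Bmal1-/- against 16.3 ± 3.98 in WT.

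The remaining lists changed in both directions or in few members. In oxidative defence 2 of 24 were higher and 6 lower, with the peroxiredoxin Prdx6 at 96.2 ± 6.97 FPKM in Bmal1-/- against 296 ± 28.9 in WT, and the glutathione synthesis subunits Gclc higher and Gclm lower. Among cold-inducible and heat shock genes 1 of 17, the constitutive chaperone Hspa8, was higher, and 4 were lower, among them the inducible chaperone Hspa1b, whose reads may be split with its near-identical neighbour. Of 18 tested glucocorticoid receptor genes and targets 4 were higher and 2 lower, with Zbtb16 at 3.59 ± 0.735 FPKM in Bmal1-/- against 0.121 ± 0.0466 in WT. In glycolysis and hypoxia 2 of 20 were higher and among immediate early genes 1 of 11 (Junb) was lower, both near the 13.7% called over all genes. Among lipid storage and PPAR genes 1 of 11 was higher (Lpl) and 1 lower (Cebpa), a share of 18.2% that is also near the 13.7%.

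The differences were not spread evenly over the chromosomes. This was seen after the differences were computed, and it is given as a description with no test. Chromosome 14 held 406 tested genes, of which 98 (24.1%) were higher and 9 lower in Bmal1-/- cells, and 84.2% of its genes had positive differences. On the other 19 chromosomes with at least 100 tested genes the share higher was 2.02 to 8.82%. The median difference on chromosome 14 was 0.65, and the medians of the single pairs lay between 0.60 and 0.69. The shift ran along the whole chromosome, with medians of 0.46, 0.38, 0.81, 0.83 and 0.64 in successive bins of 25 Mb. Chromosomes 13, 3 and 5 leaned the other way, with medians of -0.52, -0.45 and -0.42 and with 72, 103 and 98 genes lower against 9, 24 and 24 higher. All other medians lay between -0.15 and 0.21. At 37 °C the medians were 0.59 for chromosome 14 and -0.50, -0.42 and -0.44 for chromosomes 13, 3 and 5. Around Arntl on chromosome 7, within 10 Mb of its start, 12.6% of 111 tested genes were called, 2 higher and 12 lower. The median difference there was -0.19, against -0.08 over chromosome 7. Copy number was not measured, and its part in these medians was not tested. Anxa8, Gdf10 and Gata4 lie on chromosome 14, as do the lower genes Nr1d2 and Rarb. With each gene taken relative to its chromosome's median, 776 genes were higher and 817 lower. On that scale the differences of Rpl32, Eef2, Ctsl, Thbs2 and Pdgfra were 0.96, 0.83, -0.81, -1.0 and -0.66 and no longer called, and that of Nr1d1 was -1.01 and called.

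**Figure D4:**
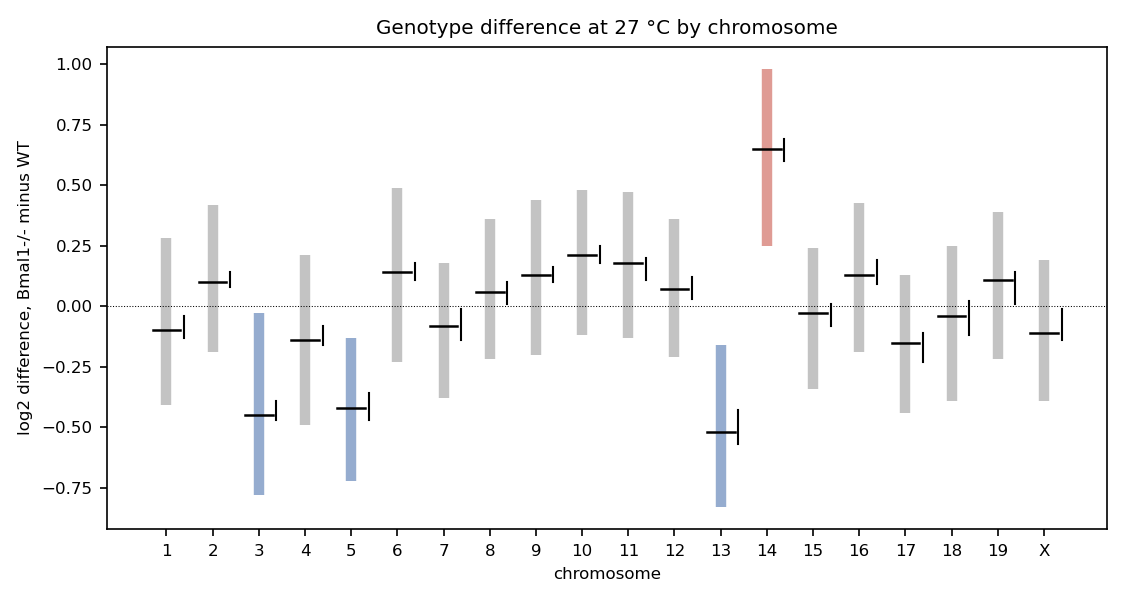
Log2 difference (Bmal1-/- minus WT, 27 °C) by chromosome: bars span the quartiles over genes, black lines are medians, and thin side lines span the medians of the 23 pairs. Chromosome 14 stands up with a median of 0.65, chromosomes 13, 3 and 5 stand below -0.4, and the pair medians of each stay narrow.

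The genotype difference at 27 °C was then set against those at 32 and 37 °C, with 48 libraries at each of these temperatures, in 1 fit over 13031 genes. Of the 1757 genes called at 27 °C, 1743 (99.2%) had the same sign at 32 °C and 1707 (97.2%) at 37 °C, and 1336 and 1117 of them were also at least 2-fold apart there. The p53 targets, for instance, had median differences of 2.24 at 27 °C, 2.52 at 32 °C and 2.40 at 37 °C. The difference at 27 °C departed from that at 37 °C, by 2-fold or more at an adjusted p under 0.05, for 579 genes (4.44%), 363 (2.79%) positive and 216 (1.66%) negative. Against 32 °C it departed for 236 genes (1.81%), 163 (1.25%) positive and 73 (0.56%) negative. A positive value means that Bmal1-/- relative to WT was higher at 27 °C than at the warmer temperature. The temperatures were run as separate courses, so temperature and course cannot be told apart. At 32 °C a single gene took 23.31 to 34.15% of summed FPKM in Bmal1-/- and 18.84 to 24.36% in WT libraries, against at most 2.51% at 27 °C.

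For several named genes the level differed more between temperatures in WT than in Bmal1-/- cells. H19, an imprinted noncoding RNA, averaged 1.41 ± 0.699 FPKM at 27 °C, 0.498 ± 0.230 at 32 °C and 1.41 ± 0.367 at 37 °C in Bmal1-/- cells. In WT cells it averaged 4.57 ± 1.47 FPKM at 27 °C, 192 ± 67.2 at 32 °C and 251 ± 27.3 at 37 °C. The log2 difference was thus -1.21 at 27 °C and -6.72 at 37 °C, and these differed by 5.51 (SE 0.157, adjusted p = 8.61e-44 by limma). Fmod, the collagen-binding proteoglycan fibromodulin, in Bmal1-/- cells averaged 162 ± 25.6 FPKM at 27 °C and 189 ± 25.4 at 37 °C, against 11 ± 4.4 at 27 °C and 176 ± 54.6 at 37 °C in WT cells (difference between temperatures 3.67). Mgp differed in both genotypes, at 1010 ± 148 FPKM at 27 °C and 495 ± 88.7 at 37 °C in Bmal1-/- cells, against 178 ± 62.6 and 760 ± 96.7 FPKM at those temperatures in WT cells (3.21). Mmp3, the stromelysin metalloprotease, in Bmal1-/- cells averaged 26.1 ± 2.93 FPKM at 27 °C and 19.3 ± 1.60 at 32 °C, against 218 ± 49.1 and 1060 ± 337 in WT cells (27 minus 32 °C, 2.65).

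Other genes had higher levels at 37 °C than at 27 °C in Bmal1-/- cells. Saa3, an acute-phase protein, averaged 24.3 ± 6.85 FPKM at 27 °C, 265 ± 64.8 at 32 °C and 687 ± 126 at 37 °C in Bmal1-/- cells, against 18.1 ± 4.90, 61.7 ± 19.9 and 51.2 ± 11 FPKM in WT cells (27 minus 37 °C, -3.33). Ephx2, the soluble epoxide hydrolase, in Bmal1-/- cells averaged 0.13 ± 0.0871 FPKM at 27 °C and 37.6 ± 4.51 at 37 °C, and in WT cells was listed at 0 in every library at 27 °C and averaged 0.269 ± 0.132 at 37 °C (-4.75). Aldh1a7, an aldehyde dehydrogenase, differed between temperatures in both genotypes, being lower at 27 °C in Bmal1-/- cells and higher at 27 °C in WT cells. It was not called at 27 °C, at 14.2 ± 6.02 FPKM in Bmal1-/- and 10.7 ± 4.80 in WT. At 37 °C it averaged 43.0 ± 4.94 in Bmal1-/- and 0.871 ± 0.326 in WT.

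Of 24 tested clock genes, 5 differed between 27 and 37 °C, all with negative values, and 1 between 27 and 32 °C. Bhlhe41 averaged 4.29 ± 0.727 FPKM at 27 °C, 3.80 ± 0.602 at 32 °C and 4.29 ± 0.757 at 37 °C in Bmal1-/- cells, against 15.7 ± 2.07, 7.42 ± 1.35 and 3.43 ± 0.784 FPKM in WT cells. The level in Bmal1-/- cells moved by less than its spread over the 3 temperatures, and the difference between 27 and 37 °C was -1.93 (SE 0.088). Ciart, with 3 E-boxes in its window above, averaged 1.15 ± 0.567, 0.884 ± 0.257 and 0.672 ± 0.217 FPKM at 27, 32 and 37 °C in Bmal1-/- cells, against 7.23 ± 2.02, 2.27 ± 0.543 and 1.21 ± 0.346 FPKM in WT cells (-1.54). Bhlhe40 and Per2 had genotype differences of -0.61 and -0.70 at 27 °C and of 0.67 and 0.58 at 37 °C, each below the 2-fold limit. Tef, a PAR bZIP factor, was the fifth (-1.05). For interferon-stimulated genes the median difference was -1.24 at 27 °C, -0.35 at 32 °C and -0.78 at 37 °C, and 5 of them were negative in the contrast of 27 with 32 °C. In the contrast with 37 °C 0 were negative and 1, Ifit2, was positive (1.05). For mitosis genes the medians were -1.03, -0.42 and -0.74 at these temperatures, with 4 negative and 0 positive in the contrast with 32 °C and 2 negative and 0 positive in that with 37 °C.

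**Figure D5:**
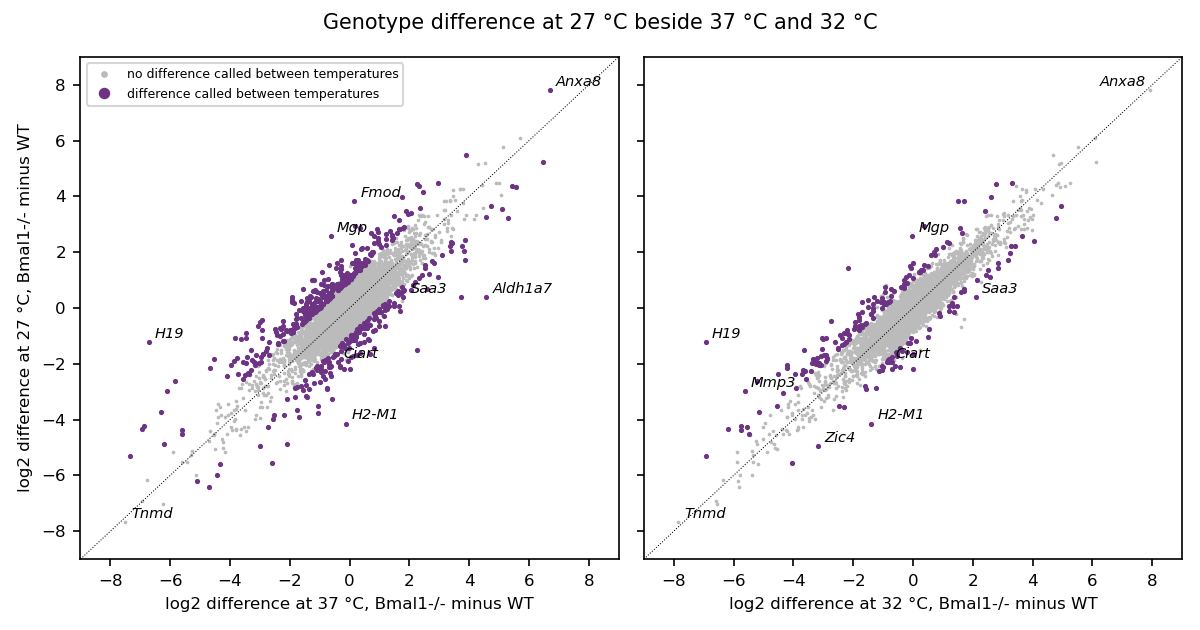
Log2 difference between genotypes (Bmal1-/- minus WT) at 27 °C on the y axis against that at 37 °C and at 32 °C on the x axes, 1 point per gene, with genes whose difference was called between temperatures in purple. Most genes follow the diagonal, and H19 lies far above it with differences of -1.21 at 27 °C and -6.72 at 37 °C.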

How the data were processed

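RNA-seq was run on poly(A) RNA from mouse skin fibroblasts with a stranded kit and 101-base single-end reads, per the labels. The deposited values are FPKM per gene, per the file headers. The submitters' processing notes name TopHat, TopHat2 2.1.0, Cuffdiff and GRCm38, with no word on annotation or on scaling between libraries. The table listed 47631 genes, and 47217 IDs matched the GRCm38 annotation used for symbols and positions.

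The authors deposited no counts. Read depth is an estimate based on the FPKM step of 1 read, over 1257 genes of at least 1500 exonic bases, where 97.3% of low values lay within 0.15 of whole reads. No counting interval was computed.

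Libraries were grouped by genotype and temperature from the labels, and both CT14 libraries at 27 °C were left out. Pair differences of log2(FPKM + 1) between equal CT were fitted with limma 3.58.1 in R 4.3.3 (eBayes with a trend on mean level, Benjamini-Hochberg adjustment), for genes whose mean was 1 FPKM or more. A call needs a difference of 2-fold or more and an adjusted p under 0.05. Contrasts of temperatures used 1 fit of the 3 temperatures. Daily variation is an F test of a 24 h cosine and sine, and drift a linear term. The scripts were tested on simulated data. Figures and tables used Python 3.11.15.

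Named are all clock genes, the 15 largest rises and falls with the same sign in all pairs, the 8 largest increases and decreases in FPKM, up to 4 genes per list, the 5 largest values per direction in each temperature contrast, and the 8 and 4 genes with the smallest p for daily variation and drift. Some of the genes so picked are not reported here, and the counts include them. Predicted genes, Riken clones, pseudogenes and small RNAs were left out of the naming only. Further list members are named as examples chosen after their values were seen. The comparison, its members and the gene lists were chosen with earlier results of these data known. Alternatives were other pseudocounts, filters, fold limits, scalings, single days, a test against the fold limit, fits with and without pairing, and the CT14 libraries kept as labelled.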

Additional observations from a re-analysis of the deposited data

Results flagged for a closer look

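The genotype difference at 27 °C departed from that at 37 °C, by a test of the difference itself, for 363 genes in the positive and 216 in the negative direction (log2 of Bmal1-/- minus WT at 27 °C, minus the same at 37 °C). The named genes of that contrast were H19 (5.51), Megf6 (3.88), Fmod (3.67), Mgp (3.21), Anpep (3.21), Ephx2 (-4.75), Aldh1a7 (-4.18), H2-M1 (-4.01), Saa3 (-3.33) and Tnfrsf26 (-2.96), and the clock genes Bhlhe41 (-1.93), Ciart (-1.54), Per2 (-1.29), Bhlhe40 (-1.29) and Tef (-1.05).

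Against 32 °C, 163 genes departed in the positive and 73 in the negative direction. Named were H19 (5.72), Mmp3 (2.65), Mgp (2.61), Anpep (2.57), Mylk (2.38), H2-M1 (-2.74), Ephx2 (-1.85), Zic4 (-1.75), Saa3 (-1.71) and Ciart (-1.15). Megf6, Ephx2 and Mylk had means under 1 FPKM over the 27 °C libraries, so their level there was not tested. H2-M1, a nonclassical MHC class I gene, averaged 0.0593 ± 0.0574 FPKM in Bmal1-/- and 18.2 ± 4.30 FPKM in WT cells at 27 °C, and was listed at 0 in every Bmal1-/- library at 37 °C, against 0.0986 ± 0.0763 FPKM in WT. Both contrasts called 150 genes with the same sign.

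The libraries labelled CT14 at 27 °C, which the comparisons leave out, had the opposite sign in 99.0% of the called genes. The data do not show where the labels and the cells came apart.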

How the results depend on the processing

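No result changed direction under any alternative run. With a 1.5-fold limit in place of 2-fold, 1895 genes were higher and 2159 lower, and with a mean of at least 5 FPKM 579 were lower because fewer genes were tested. A pseudocount of 0.1 raised the contrasts of temperatures to 365 negative genes against 37 °C, and to 246 positive and 158 negative against 32 °C. Daily variation was called for 1 gene with no filter and for 8 with no replicate block, against 0. Drift was called for 217 genes with CT14 kept as labelled, which adds a pair of the opposite sign.

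Libraries of equal CT were paired as planned. The data give little sign of shared deviations: their correlation was over 0.1 in 7 of 23 pairs (median 0.0755, from -0.0807 to 0.235), and 2 libraries correlated best with the partner of their own CT. With no replicate block 835 genes were higher and 923 lower, and drift was called for 1436.

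Counted over pairs of a named gene and an alternative, 26 level calls were lost, 7 were gained and 1802 stayed, and of the counts per list 36 moved and 712 did not. From the first day alone, mt-Nd1 (-0.96), Usp2 (0.71) and H19 (-0.92) were no longer called, and with CT14 kept Eef2 (0.96) was not. The relative-to-chromosome scale was added after the data were seen. Depth limits genes near 0, where 1 genotype is listed at 0 in some libraries. The cause of these shifts was not tested otherwise.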

Other observations

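Several genes stood at the limit of the 2-fold rule. Fbn1, the microfibril protein fibrillin-1, differed by -0.99 and was not called, at 24.2 to 46.2 FPKM in Bmal1-/- libraries and 62.8 to 83.6 FPKM in WT libraries without overlap. Thbs1, at -0.98, was not called over the whole course and differed by -1.34 on the second day. Nid1, the basement membrane protein nidogen, had 174 to 244 FPKM in Bmal1-/- libraries and 370 to 607 FPKM in WT libraries, and its difference drifted by -0.52 per 24 h.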
